A study of Mus musculus with 9 samples.

Results

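Some stretches of the fibroblast genome are neither methylated nor unmethylated: 2330 autosomal tiles of 100 bp carried intermediate methylation in all 4 fibroblast samples. A tile is a fixed 100 bp window, and its level in a sample is the number of methylated calls divided by all CpG calls in it. The tiles were chosen by 3 conditions: at least 10 calls in each of 8 samples, at least 3 CpGs, and a level of 35 to 65% in every fibroblast sample. They made up 1.56% of the 149774 autosomal tiles with enough calls and CpGs, which in turn came from 279699 tested tiles. The fibroblast levels are therefore a product of the choice and are given as a description. The levels in embryos were not used to choose them.

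The nuclear transfer (NT) embryos, labelled NTZy14, were made by moving nuclei of cultured fibroblasts into enucleated C57/B6 mouse oocytes, which were then activated and grown in culture. The fibroblasts, labelled TT, were grown from tail tips of adult males. Each stage held 2 samples labelled X1 (numbers 3 and 4) and 2 labelled BDF1-CAST (numbers 1 and 2), so the groups were NTZy14 X1, NTZy14 BDF1-CAST, TT X1 and TT BDF1-CAST. What X1 denotes, what the digits in NTZy14 stand for, how many embryos were pooled and whether samples came from separate animals are not stated by the labels. Methylation was read by reduced representation bisulfite sequencing, which samples CpGs near the CCGG sites that the enzyme MspI cuts. NT embryo libraries held 25239364 to 30396273 calls and fibroblast libraries 35442175 to 41466097. Per chosen tile, the median was 41 to 52 calls in NT embryo samples and 73 to 176 in fibroblast samples. Several CpGs of a tile often lie on the same read, so the calls are not independent molecules, and levels of 0 or 100% can rest on few reads. X1 libraries listed fewer CpGs, 1376884 to 1411581 against 1746590 to 1815562 for BDF1-CAST among NT embryos, and strain cannot be told apart from such library differences.

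A single CpG on a single chromosome copy is either methylated or not. An intermediate level over a cell population can thus mean that cells differ, that the maternal and paternal copies differ as at imprinted genes, that neighbouring CpGs differ, or that a border between methylated and unmethylated sequence runs through the window. After fertilization the paternal genome loses much of its methylation and the maternal copy loses it more slowly with each division, while imprint control regions keep the mark on the parental copy that carried it. The series set fertilized embryos against embryos made from somatic nuclei, and the fertilized ones are not used here. Bulk sequencing cannot separate cells from chromosome copies here.

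Some of the tiles lay at the start of a gene. Promoters of 300 bp from RefSeq (build GRCm38.p6) were located on the deposited build mm9 positions through the spacing of their CpGs, and 39 of the tiles touched one, at 35 genes. The 5 printed here show what such a tile looks like: capitals mark the CpGs that lie in the chosen tiles and were listed in at least 3 libraries, and each is written 5′ to 3′ along its gene. Zrsr1, an imprinted gene expressed from the paternal copy, lies at chr11:22971755-22972054 on the + strand of GRCm38.p6 and has 4 such CpGs among 10. Boll, which encodes an RNA-binding protein needed in male germ cells, lies at chr1:55362679-55362978 on the - strand and has 15 among 39. Crygn, a member of the crystallin family of lens proteins, lies at chr5:24757799-24758098 on the - strand and has 7 among 18. Myo1h, a class I myosin, lies at chr5:114289003-114289302 on the + strand and has 6 among 15. Rpl39l, a paralogue of a large-subunit ribosomal protein gene, lies at chr16:10169978-10170277 on the + strand and has 4 among 17.
Zrsr1: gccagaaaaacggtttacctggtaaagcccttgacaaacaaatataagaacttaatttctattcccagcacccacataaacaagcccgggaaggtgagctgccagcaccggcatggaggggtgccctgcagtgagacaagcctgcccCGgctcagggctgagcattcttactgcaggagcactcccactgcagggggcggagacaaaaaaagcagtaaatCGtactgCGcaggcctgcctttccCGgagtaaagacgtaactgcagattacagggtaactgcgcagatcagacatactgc
Boll: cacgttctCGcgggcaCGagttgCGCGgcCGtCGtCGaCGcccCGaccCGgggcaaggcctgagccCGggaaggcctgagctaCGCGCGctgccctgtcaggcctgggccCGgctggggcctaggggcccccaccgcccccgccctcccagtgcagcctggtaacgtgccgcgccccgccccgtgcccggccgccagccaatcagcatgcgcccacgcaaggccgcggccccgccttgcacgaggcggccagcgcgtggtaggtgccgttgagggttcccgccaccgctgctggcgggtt
Crygn: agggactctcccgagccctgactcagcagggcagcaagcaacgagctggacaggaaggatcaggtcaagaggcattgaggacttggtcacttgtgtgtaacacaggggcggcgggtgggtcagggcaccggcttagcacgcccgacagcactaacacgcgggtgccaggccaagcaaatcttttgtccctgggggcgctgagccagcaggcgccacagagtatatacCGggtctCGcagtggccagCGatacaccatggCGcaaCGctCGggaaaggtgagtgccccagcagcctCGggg
Myo1h: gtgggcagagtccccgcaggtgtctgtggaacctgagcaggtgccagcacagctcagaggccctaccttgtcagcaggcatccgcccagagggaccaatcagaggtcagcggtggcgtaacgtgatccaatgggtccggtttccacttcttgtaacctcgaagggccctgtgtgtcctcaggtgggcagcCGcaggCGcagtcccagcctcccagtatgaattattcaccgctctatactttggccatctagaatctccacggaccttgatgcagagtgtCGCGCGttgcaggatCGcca
Rpl39l: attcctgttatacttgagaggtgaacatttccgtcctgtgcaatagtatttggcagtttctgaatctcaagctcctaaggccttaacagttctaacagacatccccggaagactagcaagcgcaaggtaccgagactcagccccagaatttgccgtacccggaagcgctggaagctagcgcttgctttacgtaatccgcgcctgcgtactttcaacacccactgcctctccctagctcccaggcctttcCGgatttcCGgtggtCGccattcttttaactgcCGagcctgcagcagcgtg

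In NT embryos the same tiles spread over the whole range. The median level of a tile was 41.2% in NT embryos, against 51.4% in fibroblasts, when a tile's level was averaged over the 4 samples of a stage. By sample, the median over the tiles was 48.8% and 43.9% in X1 NT embryos 3 and 4 and 35.5% and 36.4% in BDF1-CAST NT embryos 1 and 2. In fibroblasts it was 53.9% and 52.1% in X1 samples 3 and 4 and 51.8% and 49.3% in BDF1-CAST samples 1 and 2. All 4 NT embryo medians lay below all 4 fibroblast medians. Averaged over the NT embryos, 1340 tiles (57.5%) remained at 35 to 65%, 848 (36.4%) lay under 35% and 142 (6.09%) lay over 65%. The extremes were rarer, with 67 tiles under 10% and 12 over 80%.

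Single NT embryo samples differed more than these means show. All 4 NT embryo samples lay between 35 and 65% at 248 tiles, all 4 lay under 35% at 256 and all 4 lay over 65% at 17. At the other 1809 tiles (77.6%) the samples fell into different classes. Between NT embryo samples a tile's median SD was 16 points, where independent calls would give 7.12 points from counting alone. In fibroblasts it was 6.08 points against 5.39 from counting, but there the choice of tiles limits it. The share of tiles under 35% was 29.4% and 38.6% in X1 NT embryos 3 and 4, and 49.3% and 48.0% in BDF1-CAST NT embryos 1 and 2. The share over 65% was 24.1% and 21.2% in X1 and 8.63% and 7.98% in BDF1-CAST. X1 NT embryo 4 had 207 tiles with no methylated call and 58 that were fully methylated. Across the 2330 tiles, NT embryo and fibroblast means correlated at r = 0.275, a range narrowed by the choice.

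**Figure D1:**
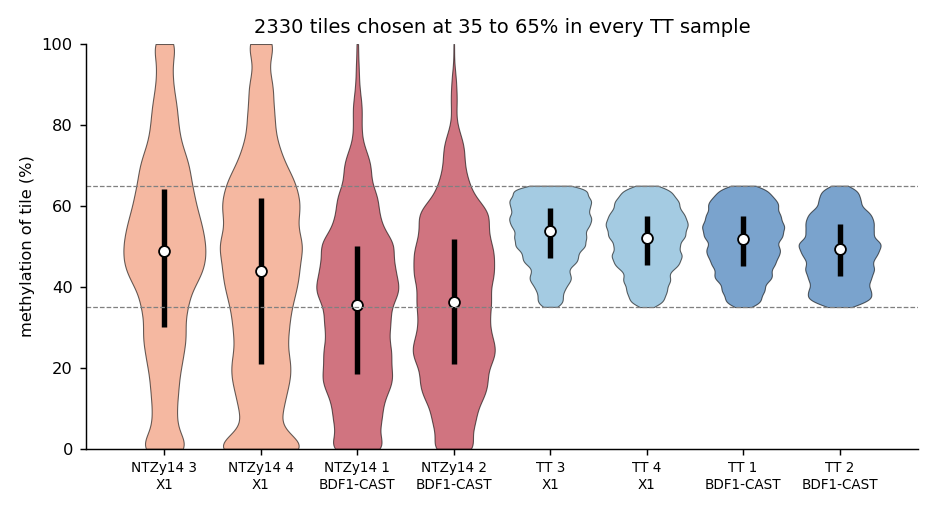
Methylation of the 2330 tiles in each sample, as a density per sample with the median (white dot) and the middle 50% of tiles (black bar). Dashed lines mark 35 and 65%. The fibroblast (TT) densities end at those lines by choice, and the NT embryo (NTZy14) densities reach from 0 to 100% with medians of 35.5 to 48.8%.

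The test across the whole table called 240 of the tiles lower in NT embryos (10.3%, where 4.00% of all 279699 tested tiles were called lower) and 11 higher (0.472%, against 0.144% of all). Calls needed an adjusted p under 0.05 in a quasi-binomial model with limma-moderated dispersion, and a difference of 20 points or more. Among tiles over 65% in every fibroblast sample, 10.8% were called lower. The fibroblast side of this difference was set by the choice of tiles, so nothing is read from these shares. Every NT embryo sample lay below every fibroblast sample at 448 tiles (19.2%, against 11.9% of all tested) and above at 38 (1.63%, against 0.874%). Leaving out a fibroblast sample removed most calls: 0 tiles were called without fibroblast sample 1 or without sample 2, 54 lower without sample 3 and 65 lower without sample 4. Of all tested tiles, 0, 0, 0.594 and 0.722% were called lower in these 4 fits, in which the rule chose 2904, 3152, 3500 and 3099 tiles. Without NT embryo sample 1 the count was 130 lower, and without sample 2 it was 123, against 1.82 and 1.73% of all tested tiles. A fit with the sample number in place of strain called 0 of the 2330 tiles and 0% of all tested tiles. Whether samples of the same number were paired is not known.

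The same direction appeared where the fibroblast values compared had not chosen the tiles. Tiles at 35 to 65% in both fibroblast samples of the other strain were measured in each strain. Over 5920 tiles chosen in BDF1-CAST fibroblasts, the mean level was 50.4% and 45.9% in X1 NT embryos 3 and 4, against 58.8% and 56.2% in X1 fibroblasts 3 and 4, a difference of -9.30 points. Over 5014 tiles chosen in X1 fibroblasts, it was 33.7% and 34.9% in BDF1-CAST NT embryos 1 and 2, against 49.0% and 46.2% in BDF1-CAST fibroblasts 1 and 2, a difference of -13.3 points. In each strain both NT embryo samples lay below both fibroblast samples. This comparison was not tested.

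The X1 and BDF1-CAST NT embryo samples had unlike levels at many tiles, but no tile passed the test of the NT embryos alone. The choice of tiles used no embryo value, so X1 and BDF1-CAST NT embryos can be set against each other. X1 NT embryos were higher at most tiles, with a median difference of 7.67 points. Between X1 and BDF1-CAST fibroblasts it was 1.98 points, but the choice of tiles limits that gap. The 2 medians can therefore not be compared. Both X1 samples lay above both BDF1-CAST samples at 819 tiles (35.1%, against 25.6% of all tested tiles), and below at 289 (12.4%, against 11.9%). Among tiles over 65% in every fibroblast sample the share above was larger, 43.2%, with the same median difference of 7.67 points. The X1 mean exceeded the BDF1-CAST mean by at least 40 points at 237 tiles (10.2%), against 3.96% of all tested tiles and 3.77% of those over 65% in every fibroblast sample. The opposite gap occurred at 39 tiles (1.67%, against 0.951% of all tested).

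Within NT embryos 2 samples stood against 2. The quasi-binomial model called 0 of the 2330 (0% of all tested), with a smallest adjusted p of 0.620 over all tiles. An unadjusted p under 0.05 was found at 347 (14.9%, against 7.51% of all tested tiles). Among tiles over 65% in every fibroblast sample it was found at 10.2%. A limma fit to arcsine-transformed levels called 0 as well, with 400 at an unadjusted p under 0.05 (17.2%, against 14.0% of all tested tiles). Among tiles over 65% in every fibroblast sample the limma share was 16.4%, close to that of the chosen tiles. When the fibroblast samples entered the fit, whose spread the choice of tiles limits, 9 tiles were called (292 of all tested tiles were, 0.104%), 7 of the 9 higher in X1. Chosen after its values were seen, chr8:92263000 was the widest of these, with 95.3% and 100% in X1 NT embryos and 20.3% and 15.8% in BDF1-CAST NT embryos (adjusted p = 0.0469 in that fit), against 39.7 to 52.8% in fibroblasts. In the other direction, chr18:81449200 had 0% and 6.52% in X1 NT embryos and 60.1% and 58.5% in BDF1-CAST NT embryos (adjusted p = 0.0484). These pairs did not overlap.

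Classed by strain, 166 tiles (7.12%) lay over 65% in X1 NT embryos and under 35% in BDF1-CAST NT embryos. The other way round lay 12 (0.515%). The classes by strain were not counted over all tested tiles, so the counts are not read as particular to these tiles. Both strains remained at 35 to 65% at 633 tiles (27.2%) and both lay under 35% at 516 (22.1%). The median absolute difference between NT embryos of the same strain was 14.5 points for X1 and 13.3 points for BDF1-CAST, and 17.3 to 19.2 points between strains. Over the 2330 tiles, levels correlated at 0.477 for X1, 0.41 for BDF1-CAST and 0.226 to 0.262 between strains. These are descriptions over tiles, which are not replicates.

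**Figure D2:**
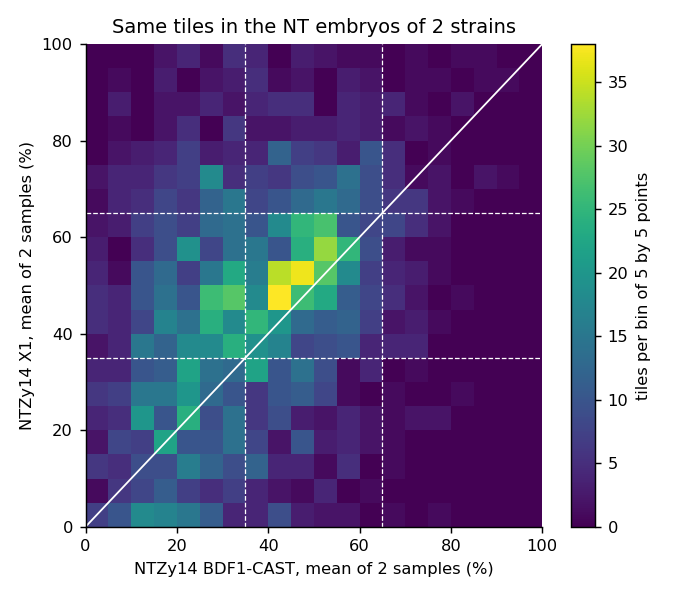
Number of tiles by level in X1 NT embryos (vertical axis, mean of 2 samples, %) and BDF1-CAST NT embryos (horizontal axis, mean of 2 samples, %), in bins of 5 by 5 points. Dashed lines mark 35 and 65% and the solid line marks equality. Most tiles lie above the line, and 166 lie in the upper left field, over 65% in X1 and under 35% in BDF1-CAST. The opposite field holds 12, and neither field was counted over all tested tiles.

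Tiles whose intermediate level came from unlike CpGs kept it more often than the others. At 200 tiles, fibroblasts had a CpG under 20% and another over 80%, each with at least 20 calls summed over the samples. Of these, 160 (80%) remained at 35 to 65% in NT embryos and 33 (16.5%) lay under 35%, with a median SD between NT embryos of 8.64 points. At 392 tiles every CpG lay between 35 and 65% in fibroblasts. Of those, 215 (54.8%) remained and 146 (37.2%) lay under 35%, with a median SD of 18.7 points. The same CpG stayed the lower of the pair: at all 192 tiles with at least 10 calls at both CpGs in NT embryos, it lay below its partner, with medians of 4.94% and 80%, against 5.26% and 87.6% in fibroblasts, where the choice sets them. The full split was kept less often: the lower CpG was under 20% and the higher over 80% at 87 of the 192 (45.3%). By strain this held at 98 of 170 tiles in X1 NT embryos and 59 of 170 in BDF1-CAST. The order held at 169 of 170 in X1 and at all 170 in BDF1-CAST. The lower CpG had a median of 2.76% in X1 NT embryos and 4.17% in BDF1-CAST NT embryos, and the higher CpG 84.6% in X1 and 77.2% in BDF1-CAST. Over the 248 tiles at 35 to 65% in every NT embryo sample, the CpGs of a tile spanned a median of 68.5 points in fibroblasts, and over the 256 under 35% in every NT embryo sample, 27.2 points.

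The 6 tiles closest to 50% in every NT embryo sample, among the 1573 with at least 20 calls per sample, were chosen for that closeness. Tile chr18:79623500 had 48.9, 48.2, 49.1 and 50% in NT embryos 1 to 4, against 49.5, 45.0, 53.1 and 51.5% in fibroblasts. Of its 3 CpGs with at least 20 calls in each stage, 1 stood at 11.0% in NT embryos and 3.01% in fibroblasts and another at 82.4% in NT embryos and 85.6% in fibroblasts. Tile chr3:133061600 had 50, 50, 53.5 and 50% in NT embryos, against 54.6, 44.1, 45.8 and 56.3% in fibroblasts. Its second CpG stood at 5.26% in NT embryos and 3.82% in fibroblasts, beside a first CpG at 83.9% in NT embryos and 80% in fibroblasts, 10 bp away. The stages overlapped at both tiles. Tile chr15:3757000 had 48.5, 50, 53.6 and 53.8% in NT embryos, against 59.8, 58.6, 61.3 and 64.3% in fibroblasts. The NT embryos lay below the fibroblasts there without passing the test (adjusted p = 0.113), and its last CpG was at 2.61% in NT embryos and 2.46% in fibroblasts. The other 3 were chr3:18096200, chr18:15392200 and chr15:51059700, with NT embryo means of 49.2, 49.8 and 48.2%.

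**Figure D3:**
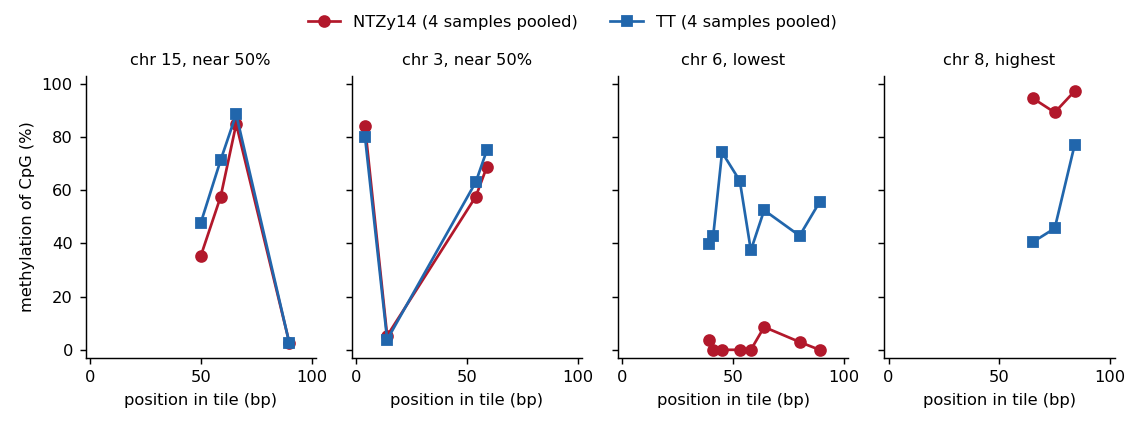
Methylation of single CpGs (vertical axis, %) by their position in the tile (horizontal axis, bp) at chr15:3757000, chr3:133061600, chr6:118543900 and chr8:118787500, pooled over the 4 NT embryo samples and over the 4 fibroblast samples, for CpGs with at least 20 calls in each stage. In the 2 left tiles low and high CpGs stand side by side in both stages, at chr6:118543900 all CpGs are at 8.57% or less in NT embryos and at chr8:118787500 all are at 89.2% or more.

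At the other end, 6 tiles with at least 20 calls per sample were chosen for the lowest mean in NT embryos, so their differences from fibroblasts are a description without a test. Tile chr6:118543900 to 118543999 holds 9 CpGs and had 0, 1.28, 1.22 and 0% in NT embryos 1 to 4, against 57.5, 48.4, 40.9 and 59.9% in fibroblasts (-51.1 points, 92 to 656 calls per sample). Its CpGs ranged from 37.4 to 74.2% in fibroblasts, and those with at least 20 calls were at or below 8.57% in NT embryos. It lay 1923 bp from the promoter of the predicted gene Gm38887. Tile chr9:43052100 to 43052199 had 1.14, 1.80, 0 and 2.08% in NT embryos, against 54.2, 53.2, 45.0 and 52.3% in fibroblasts (-49.9 points). It lay 3952 bp from the promoter of Oaf. Each NT embryo sample was near 0 at both tiles.

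The other 4 of this set had NT embryo means of 3.00 to 3.3%. Tile chr11:74966500, with 8 CpGs, had a mean of 3.3% ± 3.83 in NT embryos and 48.0% ± 7.30 in fibroblasts (SD, n = 4 each). It lay 15005 bp from the located promoter of Hic1, which encodes a transcriptional repressor. Tile chr18:24629100 averaged 3.20% ± 4.30 in NT embryos and 57.0% ± 4.88 in fibroblasts, a difference of -53.8 points. Tile chr18:82705700 averaged 3.05% ± 2.30 in NT embryos and 40.2% ± 4.47 in fibroblasts, and chr4:42053200 averaged 3.00% ± 3.48 in NT embryos and 42.7% ± 4.42 in fibroblasts.

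Higher levels in NT embryos were rarer. The 6 tiles with the highest NT embryo mean were chosen for it and are likewise described without a test. Tile chr8:118787500 to 118787599 had 97.0, 90.5, 87.5 and 96.9% in NT embryos 1 to 4, against 58.1, 52.2, 52.8 and 53.9% in fibroblasts (38.7 points), with 21 to 43 calls per sample. Tile chr9:6763900 to 6763999 had 84.3, 92.2, 98 and 85.4% in NT embryos, against 54.4, 58.7, 49.3 and 60.6% in fibroblasts (34.2 points). The nearest located promoters lay 587945 and 413009 bp away. The other 4 tiles varied more between NT embryos: chr14:70432000 had 36.1% in sample 1 and 92.5 to 100% in the other 3, against 47.4 to 63.4% in fibroblasts. Tiles chr8:121159700, chr4:152453700 and chr10:82628900 had NT embryo means of 84.7% ± 19.1, 83.8% ± 12.1 and 82.6% ± 14.9 (SD, n = 4).

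What surrounded a tile went with its level in NT embryos. The nearest tested tiles within 1000 bp on both sides were at 70% or more in fibroblasts at 122 tiles, of which 94 (77.0%) remained at 35 to 65% and 13 (10.7%) lay under 35%. Between flanks of 30% or less, 13 of 21 tiles (61.9%) lay under 35%, and where 1 flank was at 30% or less and the other at 70% or more, 14 of 25 did (56.0%). Most tiles, 1819, had no tested tile that close on 1 or both sides. Of 194 tiles at 1 to 5000 bp from a located promoter, 121 (62.4%) lay under 35% in NT embryos and 1 lay over 65%. Of 2017 farther away, 686 (34.0%) lay under 35% and 135 over 65%. The stage test called 25.8% of the nearer tiles lower and 9.07% of the farther ones. Over all eligible tiles, whose median level in fibroblasts was 1.09% at 1 to 5000 bp and 70.5% farther away, it called 2.17 and 6.05% lower. The share was also higher near promoters among tiles over 65% in every fibroblast sample, of which 41.1% were called lower at 1 to 5000 bp and 9.94% farther away. Located promoters are CpG-rich ones, and tiles counted as far can lie near promoters that were not located.

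**Figure D4:**
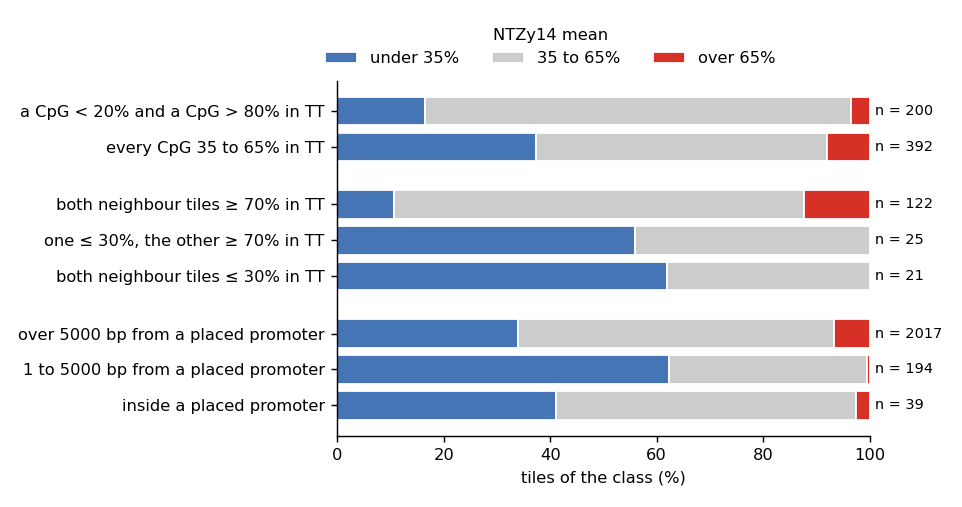
Share of tiles (horizontal axis, %) by mean level in NT embryos, for classes of tiles defined by single CpGs in fibroblasts, by the fibroblast level of the nearest tiles within 1000 bp on both sides and by distance to a located promoter. The number of tiles stands at the right. Tiles that mix a low and a high CpG kept an intermediate level at 80%, and tiles 1 to 5000 bp from a promoter lay under 35% at 62.4%.

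The tiles were sparser in CpGs than others. Their median CpG density, the authors' count of CpGs within 50 bp of each CpG, was 4 against 6 over all eligible tiles. By chromosome their share of eligible tiles ranged from 1.20% on chromosome 13 to 2.16% on chromosome 17. The share under 35% in NT embryos ranged from 13 of 74 tiles (17.6%) on chromosome 13 to 78 of 173 (45.1%) on chromosome 11. The choice of 35 and 65% as borders cut through a continuum. Tiles just inside, with a lowest fibroblast sample at 35 to 37%, had medians of 34.7% in NT embryos and 45.1% in fibroblasts (327 tiles), and those just outside, at 33 to 35%, had 34.1% in NT embryos and 43.3% in fibroblasts (350 tiles). At the upper border the medians were 45.7% in NT embryos and 56.4% in fibroblasts inside (466 tiles) and 48.0% in NT embryos and 58.5% in fibroblasts outside (550 tiles).

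At the 39 tiles inside located promoters, the median was 37.6% in NT embryos and 50.9% in fibroblasts. By mean, 22 remained at 35 to 65%, 16 lay under 35% and 1 lay over 65%; the stage test called 2 lower (5.13%) and 0 higher. It called 0.357% of all eligible tiles inside located promoters lower, and 33.3% of those over 65% in every fibroblast sample. The promoter tiles described were chosen after their values were seen. The called ones were at Lrrc10, a gene of heart muscle, and at the non-coding gene Gm46055. Tile chr10:116482400 at Lrrc10 had 35.1, 17.8, 13.3 and 2% in NT embryos 1 to 4, against 55.9, 59.3, 54.4 and 37.9% in fibroblasts (adjusted p = 0.0361). Tile chr8:122157000 at Gm46055 had 15.5, 9.09, 17.1 and 20.3% in NT embryos, against 36.9, 49.0, 46.2 and 38.3% in fibroblasts (adjusted p = 0.0235). The stages did not overlap at either, and each call was lost when any 1 fibroblast sample was left out (adjusted p 0.0602 to 0.148). The Lrrc10 call was also lost without NT embryo 2, 3 or 4 (0.0524 to 0.106) and the Gm46055 call without NT embryo 1 or 2 (0.0665 and 0.0678).

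Among the sequences shown, the Myo1h promoter had the largest gap between strains. Tile chr5:114739200 to 114739299, whose run of 3 adjoining CpGs is written CGCGCG near the end of the printed sequence, had 79.2 and 66.7% in X1 NT embryos 3 and 4 and 14.9 and 13.2% in BDF1-CAST NT embryos 1 and 2. Fibroblasts had 51.8 and 51.5% in X1 and 43.8 and 39.3% in BDF1-CAST. The 2 strains did not overlap in NT embryos, the unadjusted p was 0.00106, and the adjusted p was 0.620 in the fit of NT embryos alone and 0.0469 when the fibroblasts entered the fit. The neighbouring tile chr5:114739300 did not share the split, with 48.9 and 4.00% in X1 NT embryos and 12.0 and 20.8% in BDF1-CAST. At Crygn, tile chr5:24263600 had 71.4 and 72.7% in X1 NT embryos and 5.88 and 25% in BDF1-CAST NT embryos, with as few as 11 calls, against 38.9 to 49.3% in fibroblasts. At Rpl39l, tile chr16:10170300 had 66.7 and 46.1% in X1 NT embryos and 11.7 and 16.2% in BDF1-CAST NT embryos, against 54.3 to 63% in fibroblasts. Its calls were as few as 13 in a sample. At Boll, tile chr1:55419700 had 52.9 and 70.8% in X1 NT embryos and 34.7 and 24.2% in BDF1-CAST, and tile chr1:55419800 had 42.6 and 90.7% in X1 and 8.43 and 20.9% in BDF1-CAST, against 41.5 to 54.6% in fibroblasts at both. At each of these 4 tiles both X1 values lay above both BDF1-CAST values. The opposite order occurred at the non-coding gene 1700017J07Rik, chosen after its values were seen: tile chr2:168803600 had 21.9 and 13.2% in X1 NT embryos and 55.2 and 56.0% in BDF1-CAST NT embryos. Fibroblasts had 35.2 and 38.9% in X1 and 56.6 and 53.2% in BDF1-CAST, so the strains did not overlap there either (NT embryos alone: unadjusted p = 0.00453, adjusted p = 0.620).

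Other promoter tiles were low in most NT embryos without passing the stage test. At Papolb, which encodes a poly(A) polymerase of male germ cells, tile chr5:143005900 had 5.88, 7.04, 0.658 and 23.3% in NT embryos 1 to 4, against 54.6, 42.4, 36.7 and 41.6% in fibroblasts (adjusted p = 0.0809). At Wnt5b, a secreted signalling protein, tile chr6:119399500 had 3.70, 19.5, 15.4 and 0% in NT embryos, against 35.1, 54.0, 60 and 57.4% in fibroblasts (adjusted p = 0.0510). At Henmt1, which methylates small RNAs in the germ line, tile chr3:108743200 had 0, 38.5, 16.7 and 0%, against 40, 46.5, 51.4 and 37.3% in fibroblasts, with as few as 13 calls. The stages did not overlap at Papolb and Wnt5b and overlapped at Henmt1. At Fgf6, a fibroblast growth factor, tile chr6:126965300 ranged from 0 to 66.7% over NT embryos, against 42.7 to 59.2% in fibroblasts. Tiles at Ribc2 and Lcat also ranged widely, from 6.59 to 63.3% and from 28.8 to 80% in NT embryos.

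Few tiles lay close to imprinted promoters. A list of 45 imprinted genes at 21 loci gave 17 genes with a located promoter, at 13 loci, and 145 eligible tiles lay within 5000 bp of these. Of them 7 (4.83%) were among the 2330 tiles, against 1.56% of all eligible tiles, and 107 lay under 35% in every fibroblast sample. All 7 had an NT embryo mean between 35 and 65%, where 57.5% of the 2330 tiles did. Of the 7, 0 were called, where 10.3% of the 2330 and 4.00% of all tested tiles were called lower. Single samples ranged widely, and 7 tiles are too few to read a share from. The Gnas and Dlk1-Meg3 loci held 2 each. Beyond 5000 bp, 2 tiles at the Nnat-Blcap locus were added after their values were seen: chr2:157385900 had 42.6, 4.08, 44.1 and 0% in NT embryos 1 to 4, against 36.6 to 43.3% in fibroblasts, and chr2:157386000 had 21.4, 52.4, 16.7 and 52.7% in NT embryos, against 38.7 to 50.7% in fibroblasts. The mean of the first, 22.7% in NT embryos, lay under 35%. At Gnas, which encodes a stimulatory G protein subunit and is expressed from either or both copies depending on the promoter, tile chr2:174111000 had 16.2, 50, 40.4 and 96.5% in NT embryos 1 to 4, against 45.5, 38.6, 41.2 and 52.1% in fibroblasts. The second, chr2:174113200, had 37.3, 44.6, 38.8 and 27.9% in NT embryos, against 56.0, 62.8, 47.5 and 35.9% in fibroblasts. The 4 NT embryos spread far more than the fibroblasts at the first tile and lay close together at the second.

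At Meg3, a maternally expressed non-coding RNA, tile chr12:110778800 lay 56 bp from the promoter and had 43.4, 55.7, 38.5 and 38.7% in NT embryos, against 53.2, 46.5, 44.6 and 43.8% in fibroblasts. At the same locus tile chr12:111513500, 2629 bp from the promoter of Dio3os, had 64.9, 76.6, 46.4 and 56.9% in NT embryos, against 39.9, 53.0, 54.0 and 41.0% in fibroblasts. Both pairs of stages overlapped. The tile in the Zrsr1 promoter, chr11:22871900, had 26.7 and 51.6% in X1 NT embryos and 77.1 and 69.9% in BDF1-CAST NT embryos, against 38.8 to 47.5% in fibroblasts. Its CpGs with at least 20 calls stood at 51.2 to 62.4% in NT embryos and 36.2 to 62.8% in fibroblasts, so none was fully methylated or unmethylated. The tile 2960 bp from Igf2, a paternally expressed growth factor gene, was chr7:149841600, with 59.6, 26.9, 31.2 and 52.7% in NT embryos and 38.7 to 54.1% in fibroblasts. The tile 201 bp from Hymai at the Plagl1 locus, chr10:12810900, had 62.0, 44.8, 40.4 and 25% in NT embryos and 38.8 to 52.9% in fibroblasts.

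Most tiles stood alone, many of them with no tested tile nearby. Joined within 1000 bp, the 2330 tiles formed 2208 regions, of which 2104 were single tiles, 92 held 2 tiles and 12 held more. The longest had 6 tiles, at chr17:34808400 to 34809199, 24261 bp from the promoter of Atf6b, a transcription factor of the endoplasmic reticulum stress response. Its mean level was 54.1, 36.2, 26.0 and 24.3% in NT embryos 1 to 4, against 49.0, 45.6, 38.3 and 51.5% in fibroblasts, and 0 of its tiles were called. Its first tile, chr17:34808400, had 14.2 and 12.8% in X1 NT embryos and 61.0 and 55.8% in BDF1-CAST NT embryos, and was among the 9 called for strain when the fibroblasts entered the fit. Another of its tiles, chr17:34808900, went the other way, with 63.5 and 63.3% in X1 and 47.6 and 34.2% in BDF1-CAST.

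The region of 4 tiles at chr16:17803400 to 17804499, 5977 bp from the promoter of the scavenger receptor family gene Scarf2, had low means in NT embryos. Its mean was 10.8, 26.2, 2.92 and 2.47% in NT embryos 1 to 4, against 52.9, 51.9, 40.4 and 51.9% in fibroblasts, and 3 of its tiles were called lower. At its tile chr16:17804400, which was not called, NT embryo 2 had 37.5%, against 39.7 to 55.1% in fibroblasts. The region of 3 tiles at chr15:100883300 to 100883899, 881 bp from the promoter of the ATPase gene Fignl2, had 22.6, 10.6, 11.9 and 12.9% in NT embryos, against 45.7, 40.4, 44.9 and 47.8% in fibroblasts, with 2 tiles called lower. No NT embryo mean reached a fibroblast mean in either region, but at the single tile chr15:100883500 NT embryo 1 had 41.9%, above the fibroblasts at 36.2 to 39.9%. At chr7:112910700 to 112911099, 4 adjoining tiles had 31.8, 21.6, 27.4 and 41.0% in NT embryos, against 55.1, 51.3, 53.5 and 54.3% in fibroblasts. These means did not overlap, but single tiles did: chr7:112910900 had 61.6% in NT embryo 3, above all fibroblasts, and 0 of the 4 tiles were called.

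The gap between the strains' means was largest in 2 of the 8 regions. At chr19:6413000 to 6413299, 3 adjoining tiles 11247 bp from the promoter of Rasgrp2, which encodes a guanine nucleotide exchange factor of platelets, averaged 63.1 and 79.8% in X1 NT embryos 3 and 4 and 24.3 and 10.1% in BDF1-CAST NT embryos 1 and 2. Fibroblasts had 48.4 and 40.5% in X1 and 48.8 and 39.1% in BDF1-CAST. The means of the 2 stages were 44.3% in NT embryos and 44.2% in fibroblasts, which hides the split. At the single tile chr19:6413100 NT embryo 1 had 37.9%, above fibroblast sample 2 at 36.8%. The tested tile at -200 bp from the region had the opposite order, with 68.8 and 0% in X1 NT embryos and 100 and 78.2% in BDF1-CAST. At chr5:144014900 to 144016199, 4 tiles had 15.8 and 13.4% in X1 NT embryos and 39.3 and 55.6% in BDF1-CAST NT embryos, against 45.7 to 48.8% in fibroblasts, and 1 tile was called lower. Of these, chr5:144016100 had 0% in both X1 NT embryos and 75.9 and 75% in BDF1-CAST NT embryos. The remaining regions, chr4:145722700 to 145723099 and chr10:79776000 to 79776299, averaged 43.0 and 36.2% in NT embryos and 52.2 and 50.6% in fibroblasts, with 1 tile called lower in the second.

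**Figure D5:**
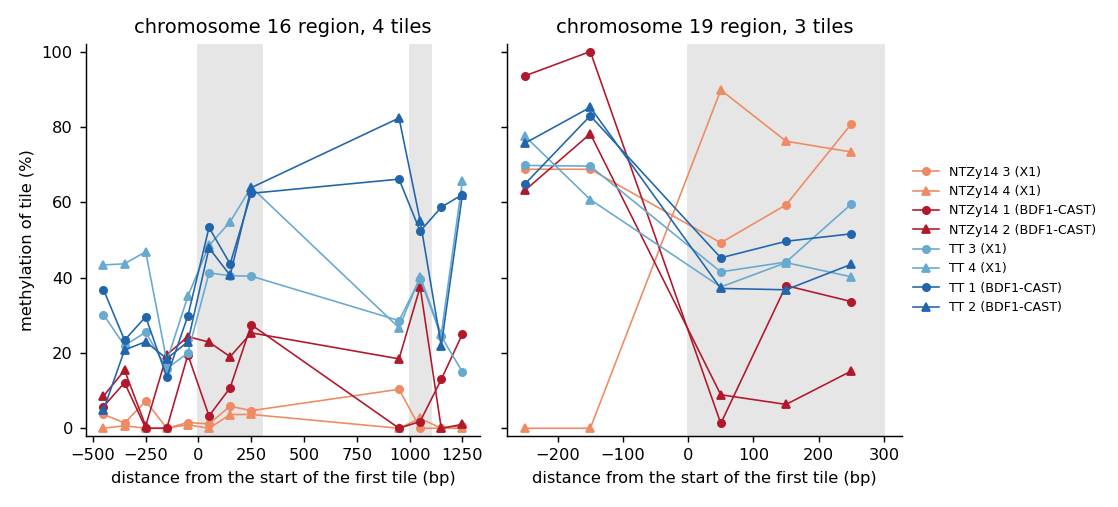
Methylation of each tested tile (vertical axis, %) by distance from the first chosen tile (horizontal axis, bp) in the chromosome 16 and chromosome 19 regions, with a line per sample. Grey bands mark the chosen tiles. In the chromosome 16 region all NT embryo means lie at 26.2% or less. In the chromosome 19 region the means of X1 and BDF1-CAST NT embryos lie on opposite sides of the fibroblast means. The tested tile at -200 bp shows the opposite order of the strains.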

How the data were processed

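The authors deposited, for each library, the count of calls and of methylated calls at each CpG, with positions of build mm9 (per the submitters' processing notes). Aligner and caller are not given in the sources used. A further tile table of the authors supplied only the CpG density score, a deposited value, and 26 of its per-sample columns were not used, 18 of them of samples not analysed here. From these counts, calls were summed in windows of 100 bp, fibroblast libraries 1 and 1a (a resequencing of the same sample) were added together, and tiles with at least 10 calls in each of the 8 samples were tested. The stage model was a quasi-binomial logistic fit with stage and strain as terms and dispersion moderated by limma 3.58.1 (R 4.3.3), with Benjamini-Hochberg adjustment over all 279699 tiles and a call at an adjusted p under 0.05 and 20 points. The strain model used the 4 NT embryo samples with strain as the sole term. Both were also run on simulated data whose spread was taken from the fibroblast samples alone. These runs do not show how either model behaves at the spread of the NT embryos. The choice of tiles limits the spread of the fibroblast samples, which enters the dispersion. Tables were made with Python 3.11.15, numpy 2.4.6, pandas 2.3.3 and scipy 1.17.1. Since no source says that samples came from separate animals, p-values measure the spread between these samples.

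RefSeq promoters were placed on mm9 by CpG spacing alone: at least 4 CpGs listed in at least 3 libraries had to match, with the same shift as a neighbouring gene at least 5000 bp away. Of 32851 promoters 10661 were placed, at 9411 genes, and none on chromosome 18, so a nearest located promoter need not belong to the nearest gene. The tiles described were the 6 lowest, the 6 highest and the 6 nearest 50% in NT embryos among tiles with at least 20 calls per sample, the tiles at imprinted loci with 2 or more, the 8 regions with the most tiles, and promoter tiles and single tiles at other imprinted loci chosen after their values were seen. Tiles and lists were chosen with earlier results of these data known. Alternatives varied the minimum of calls and CpGs, the borders of 35 and 65%, the model and the samples.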

Additional observations from a re-analysis of the deposited data

Results flagged for a closer look

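In 5 of 114 groups of 4 samples, a sample lay far from the other 3, and chance gives about 1 in 20. These were fibroblast sample 2 at chr4:152453700 (37.3%), NT embryo 1 at chr14:70432000 (36.1%), NT embryo 3 at chr3:133061600 (53.5%, where the other 3 were at 50%), fibroblast sample 2 at chr16:32797500 (50%) and fibroblast sample 3 in the region at chr16:17803400 (40.5%).

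At several tiles and a region, both NT embryos of each strain moved away from their own strain's fibroblast mean, in opposite directions in X1 and BDF1-CAST. The change in X1 minus the change in BDF1-CAST was -4.04 points at chr18:79623500, -29.5 points at chr10:12810900 near Hymai, 33.4 points at chr1:55419700 at Boll, 53.9 points at chr5:24263600 at Crygn, 48.8 points at chr5:114739200 at Myo1h and 53.8 points over the region at chr19:6413000. Opposite directions were also seen at chr8:92263000, chr18:81449200, chr17:34808400, chr17:34808900 and chr5:144016100. They were seen by the rule at chr2:168803600 too. There the BDF1-CAST NT embryos, at 55.2 and 56.0%, lay between that strain's fibroblasts at 53.2 and 56.6%. The difference between strains in these changes was not tested.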

How the results depend on the processing

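Leaving out each sample in turn gave 2416 to 3500 tiles, with 50.6 to 56.5% at 35 to 65% in NT embryos and 34.4 to 44.1% under 35%. The tiles numbered 650 at 5 or more CpGs, 1535 with 3 CpGs in every sample, 736 at 40 to 60% and 4839 at 30 to 70%. The share that remained was 60.3% for 40 to 60%, 10.6% if every NT embryo had to lie in the class (11.0% under 35%), 69.3% by a change under 20 points, 49.4% from X1 NT embryos alone (19% over 65%) and 45.9% from BDF1-CAST alone (49.4% under 35%). The BDF1-CAST change over tiles chosen in X1 was -12.4 points at 20 calls, -14.3 at 5 calls, -14.4 at 5 CpGs and -14.8 to -11.9 leaving out samples. Tiles called lower numbered 156 at 20 calls (2.76% of all tested tiles were), 88 at 5 CpGs (4.00%) and 154 without library 1a (2.76%). They numbered 78 at 40 to 60% and 490 at 30 to 70% (4.00% in both). With limma they numbered 159 (2.44%), and leaving out samples 0 to 279 (0 to 4.61%). Tiles called higher numbered 7, 3, 6, 4, 21, 7 and 0 to 11 in that order. Of all tested tiles, 0.113, 0.144, 0.11, 0.144, 0.144, 0.0897 and 0 to 0.147% were called higher. Of the 2904 and 3152 tiles chosen without fibroblast sample 1 or 2, 762 and 940 had an unadjusted p under 0.05. With the sample number as a replicate block in place of strain, 0 were called lower and 0 higher in the quasi-binomial model (598 at an unadjusted p under 0.05, smallest adjusted p 0.158). The unadjusted counts of 762, 940 and 598 were not made over all tested tiles, so nothing is read from them. Samples sharing a number correlated at 0.111, 0.127, 0.196 and 0.043, and not every sample correlated best with its own number. The choice of tiles narrows the fibroblast levels, so these correlations cannot decide whether samples of the same number were paired. Each of the 10 called tiles among 43 followed singly lost its call under the block and without fibroblast sample 1 or 2. For strain, the fit of all 8 samples called 9 tiles against 0. Uncalled differences changed sign when a sample was left out: they ran from -21.5 to 5.95 points at chr1:55419800, -11.3 to 10.9 at chr5:24263600, -15.0 to 6.999 at chr5:114739200, -8.33 to 2.55 at chr7:149841600, -12.4 to 3.12 at chr1:55419700, -1.39 to 2.68 at chr3:133061600, -8.83 to 17.9 at chr2:174111000, -8.48 to 3.85 at chr10:12810900 and -2.30 to 0.382 at chr18:79623500. The cause was not tested. Depth limits single tiles: with 10 calls over 3 CpGs a level can rest on a few reads, and tiles in repeats were not told apart.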
